A study of Mus musculus with 8 samples.

Results

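The transcripts described here encode 10 proteins of neurons and synapses that were measured in mouse spleen: Syp, Sv2b, Stx1a, Snap25, Nlgn2, Stmn2, Tubb3, Uchl1, Sncg and App. They were chosen by symbol, as all probes that the array annotation assigns to these genes, which gave 11 probes of 24613 on the array and 10 genes of 15967 named ones. All samples came from C57BL/6 mice, the strain to which the LTβR knockout had been backcrossed more than 10 times, and the mice were 8 to 10 weeks old. The lymphotoxin β receptor (LTβR) is a receptor through which lymphocytes act on stromal cells to organize lymphoid tissue, and it was absent from the whole animal in LTβR-/- (LTβR-KO) mice, whereas all other samples were LTβR+/+ (WT). There were 4 sample types with 2 arrays each: fresh WT stroma, which is the tissue left on a 70 µm mesh after the spleen was rubbed over it, fresh LTβR-KO stroma obtained likewise, WT splenocytes washed through that mesh, and cultured WT stroma, which is the adherent cells of minced spleen at culture weeks 3 to 4, passage 2 to 3. The sources name no treatment of the mice. The stroma fractions are mechanical preparations and hold many cell types, and the cultured samples were prepared from spleens that had not passed over the mesh. The study's sources describe the 2 arrays of a type differently, as technical replicates of an extract or as biological replicates, so p-values measure the spread between arrays, which may be technical.

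At a chemical synapse, transmitter is stored in small vesicles whose membranes carry Syp (synaptophysin) and SV2 proteins. The vesicles fuse when a vesicle SNARE zips together with the plasma membrane SNAREs syntaxin 1 and SNAP-25, and neuroligins on the receiving cell hold the synapse together. In the spleen, the nerve fibres are mainly sympathetic, follow the arteries and have their cell bodies outside the organ. Several of these genes are also expressed outside neurons: App is made by many cell types, and Uchl1 and Sncg are found in some mesenchymal and endocrine cells.

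The start regions of 4 of these genes are shown because their signals went in opposite directions between fresh and cultured stroma (below for Syp and Stx1a, above for Uchl1 and App). RefSeq windows (GRCm38.p6) existed for 8 of the 10 genes and 11 start sites, and were cut to the 250 bases before the start. Snap25 and Stmn2 had no entry. Capitals mark the GC box GGGCGG on either strand, the core of a site for Sp family factors.
Syp (chrX:7638330-7638579, plus strand): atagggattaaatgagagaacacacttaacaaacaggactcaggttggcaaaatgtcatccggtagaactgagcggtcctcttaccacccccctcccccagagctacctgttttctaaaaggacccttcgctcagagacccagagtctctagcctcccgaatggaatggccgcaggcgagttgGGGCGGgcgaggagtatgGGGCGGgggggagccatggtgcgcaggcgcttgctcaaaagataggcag
Stx1a (chr5:135023232-135023481, plus strand): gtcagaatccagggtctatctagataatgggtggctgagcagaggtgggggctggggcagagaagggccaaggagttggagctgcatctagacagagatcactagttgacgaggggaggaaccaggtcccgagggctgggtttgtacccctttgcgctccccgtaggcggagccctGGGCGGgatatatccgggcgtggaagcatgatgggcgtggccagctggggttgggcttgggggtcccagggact
Uchl1 (chr5:66675871-66676120, plus strand): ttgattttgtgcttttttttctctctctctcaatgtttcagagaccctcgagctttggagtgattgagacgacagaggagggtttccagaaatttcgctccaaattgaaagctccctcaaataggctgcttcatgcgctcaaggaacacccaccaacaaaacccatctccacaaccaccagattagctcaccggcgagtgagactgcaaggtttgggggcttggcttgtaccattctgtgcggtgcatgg
App (chr16:85173708-85173957, minus strand): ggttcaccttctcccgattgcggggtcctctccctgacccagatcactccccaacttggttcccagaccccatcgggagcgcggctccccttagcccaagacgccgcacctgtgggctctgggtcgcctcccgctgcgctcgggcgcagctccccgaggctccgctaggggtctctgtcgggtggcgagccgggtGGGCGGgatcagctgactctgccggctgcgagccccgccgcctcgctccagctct

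The GC boxes of Syp began 67 and 49 bases before the start, that of Stx1a 74 bases before it and that of App 55 bases before it, while the window of Uchl1 had none. Of the 11 windows, 6 held at least 1 GC box, each of a different gene (Syp, Stx1a, Nlgn2, Tubb3, Sncg and App), against 32.7% of all 32851 windows of the same length. The windows of Syp, Stx1a and App were 56.4%, 62% and 70.8% G or C, that of Uchl1 48.8%, and the median over all windows was 52.4%. A form of the NF-κB site (GGGAA, any 3 bases, CC) and the letters TTCAGCACC, the left part of the site of the neuronal repressor REST, were searched on both strands and stood in 0 of the 11 windows, against 4.94% and 0.301% of all windows. These are matches of letters and were not tested as binding sites. GC boxes were found in genes with lower and with higher signal in culture. No window of Sv2b, which had the largest fall in culture as fitted (log2 difference -3.03), held a GC box. Its windows, not shown, were 32.8% to 48.8% G or C.

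Signals below are given on the log2 scale after background correction and normalization, with replicate 1 first, and a probe counts as detected on an array when its detection p-value against the negative controls is under 0.05. Between 9900 and 11283 probes were detected per array, and replicate arrays correlated at 0.985 to 0.992 across the 12389 probes tested, those that both arrays of 1 sample type or more detected. The Ltbr probe gave 6.44 and 6.80 in WT stroma, 6.82 and 7.18 in LTβR-KO stroma, 5.41 and 5.64 in splenocytes and 6.65 and 7.0 in culture. This signal does not check the labels, because the sources used here do not say whether the probe matches exons that the knockout removed. Madcam1, an adhesion molecule of the marginal sinus, was detected on neither LTβR-KO stroma array (4.54 and 4.44) and stood at 8.84 and 8.81 in WT stroma, at least 15.4-fold higher (limma adjusted p = 1.53e-07). Splenocytes were low in smooth muscle and endothelial markers: the summed normalized signal of 20 endothelial genes was 1474 to 1480 there and 22940 to 23060 in WT stroma. Summed signals, here and below, add the normalized signals on the linear scale over all genes of a list on the array, tested or not.

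Of the 10 genes, 8 were lower in LTβR-KO stroma than in WT stroma and 0 were higher, by 1.67-fold (App) to 2.60-fold (Sv2b) as fitted. The remaining 2, Snap25 and Tubb3, did not pass the test. Stmn2, 1 of the 8, was tested through WT stroma alone, which fixed its direction. Among all tested probes 12.5% passed, of which the lower ones made up 7.18% and the higher ones 5.31% of those tested. This background of 1547 probes was 701 to 1464 when 1 array was left out (701 without WT stroma replicate 1), while 6 to 8 of the 10 genes were called. The 8 genes are all in the study's own list of genes with reduced signal in LTβR-KO stroma, which was drawn from these arrays, so their count is not independent evidence of the direction. The median log2 difference, to which the same limit applies, was -0.93 over the 10 genes and 0.02 over all tested probes. A lower signal in a tissue fraction can reflect fewer cells of a type or less RNA per cell, and these cannot be told apart in bulk samples.

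**Figure D1:**
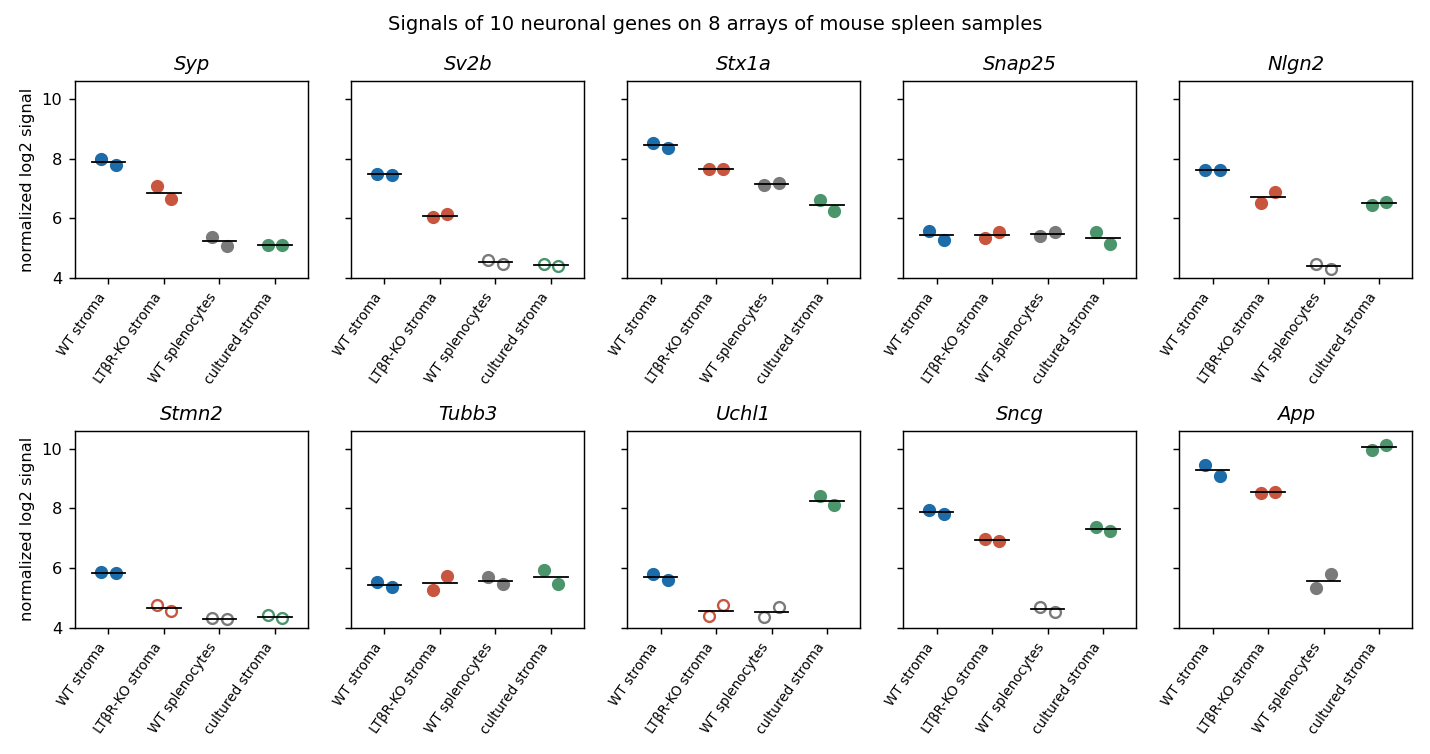
Normalized log2 signal (vertical axis) of the 10 genes on each of the 8 arrays, by sample type. Each point is 1 array, filled where the probe was detected and open where it was not, and the black line is the mean of 2 arrays. Syp, Sv2b, Stx1a and Stmn2 are highest in WT stroma, Uchl1 and App are highest in culture (means 8.26 and 10.05), and Snap25 and Tubb3 stay between 5.14 and 5.92 on all arrays.

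Among the vesicle membrane proteins, Syp (probe ILMN_2630182), an abundant protein of synaptic vesicles, gave 8.0 and 7.78 in WT stroma, 7.07 and 6.65 in LTβR-KO stroma, 5.38 and 5.09 in splenocytes, and 5.12 and 5.10 in culture. WT stroma was highest on both arrays and LTβR-KO stroma lay between WT stroma and the other types, without overlap. Syp was 2.04-fold lower in LTβR-KO than in WT stroma (log2 difference -1.03 ± 0.18, SE; limma adjusted p = 0.0048). It was 6.30-fold higher in WT stroma than in splenocytes (adjusted p = 6.24e-07 by limma) and 6.87-fold lower in culture than in fresh WT stroma (adjusted p = 3.12e-07). Splenocytes and cultured stroma overlapped in Syp (log2 difference -0.13, 95% interval -0.52 to 0.27, adjusted p = 0.574).

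Sv2b (ILMN_2714592), a transporter-like glycoprotein of synaptic vesicles, gave 7.49 and 7.47 in WT stroma and 6.05 and 6.14 in LTβR-KO stroma. It was detected on neither array of splenocytes (4.62 and 4.49) nor of cultured stroma (4.48 and 4.41). The WT stroma arrays differed by less than the LTβR-KO ones, and both pairs stood apart from each other. The difference between LTβR-KO and WT stroma was the largest of the 10 genes as fitted, at -1.38 ± 0.14 (SE; limma adjusted p = 0.000175). WT stroma was at least 6.10-fold above splenocytes (limma adjusted p = 3.81e-08) and at least 5.64-fold above culture (adjusted p = 2.31e-08). The closely related Sv2a, which is on the array as well, was 5.89 in LTβR-KO and 6.22 in WT stroma on average and did not pass the test (log2 difference -0.33, adjusted p = 0.338 by limma).

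The plasma membrane SNAREs behaved differently from each other. Stx1a (ILMN_2700608), syntaxin 1A, gave 8.54 and 8.35 in WT stroma, 7.64 and 7.66 in LTβR-KO stroma, 7.12 and 7.19 in splenocytes, and 6.62 and 6.25 in culture. All 4 sample types were separated and all 3 neighbouring means were called different. The fall in LTβR-KO stroma was -0.80 ± 0.16 on the log2 scale (1.74-fold; limma adjusted p = 0.00995), and it was not called without WT stroma replicate 1 (adjusted p = 0.0763). Stx1a was detected on all splenocyte arrays, 2.45-fold below WT stroma (limma adjusted p = 6.11e-05), and was 4.03-fold lower in culture than in fresh WT stroma (adjusted p = 1.53e-06). The separation of LTβR-KO stroma from splenocytes (log2 difference 0.49, limma adjusted p = 0.0273) was not seen in the bead signals of Stx1a before normalization, which were 189.1 and 163.6 in LTβR-KO stroma and 171.6 and 198.2 in splenocytes.

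Snap25, the partner of syntaxin 1 in the fusion complex, had 2 probes. The tested one (ILMN_2741123) gave 5.58 and 5.28 in WT stroma, 5.33 and 5.55 in LTβR-KO stroma, 5.41 and 5.54 in splenocytes, and 5.53 and 5.14 in culture. All sample types overlapped at a dim level, and the difference between LTβR-KO and WT stroma was 0.01 (95% interval -0.39 to 0.41; limma adjusted p = 0.981). The other probe (ILMN_1231105) was detected on 0 of the 8 arrays, with bead signals of 42.2 to 50.4, and was not tested. Snap23, the form of this SNARE in most non-neuronal cells, stood at 8.09 in LTβR-KO and 8.10 in WT stroma and did not pass the test either (adjusted p = 0.979 by limma).

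Nlgn2 (ILMN_2680063), the neuroligin of inhibitory synapses, gave 7.61 on both WT stroma arrays, 6.53 and 6.88 in LTβR-KO stroma, and 6.45 and 6.56 in culture. It was detected on neither splenocyte array (4.49 and 4.30). LTβR-KO and cultured stroma overlapped below WT stroma. Nlgn2 was 1.88-fold lower in LTβR-KO stroma (log2 difference -0.91 ± 0.16, SE; limma adjusted p = 0.00497), and cultured stroma was 2.16-fold below fresh WT stroma (adjusted p = 0.000123). WT stroma was at least 6.71-fold above splenocytes (limma adjusted p = 6.54e-08). Nlgn3, a related neuroligin, was 5.51 in LTβR-KO and 5.27 in WT stroma on average and was not called (log2 difference 0.24, adjusted p = 0.303 by limma).

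Of the genes of the axonal cytoskeleton, Stmn2 (ILMN_1253304), a microtubule regulator of growing axons, was detected in WT stroma only. It gave 5.88 and 5.82 there, 4.75 and 4.56 in LTβR-KO stroma, 4.33 and 4.28 in splenocytes, and 4.42 and 4.32 in culture. WT stroma stood above all others, which were at or below the detection limit. Because Stmn2 entered the test only through WT stroma, it had to be higher there. The bounds were at least 1.96-fold against LTβR-KO stroma (limma adjusted p = 0.000519), at least 1.97-fold against splenocytes (adjusted p = 5.71e-06) and at least 1.83-fold against culture (adjusted p = 5.51e-06). Tubb3 (ILMN_2466818), the neuronal β-tubulin, gave 5.52 and 5.36 in WT stroma, 5.28 and 5.74 in LTβR-KO stroma, 5.70 and 5.46 in splenocytes, and 5.92 and 5.48 in culture. Its sample types overlapped, and the difference between LTβR-KO and WT stroma was 0.06 (95% interval -0.39 to 0.51; limma adjusted p = 0.893).

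Uchl1 (ILMN_1225261), a ubiquitin hydrolase very abundant in neurons, had its highest signal in culture. It gave 8.41 and 8.11 in cultured stroma and 5.81 and 5.61 in fresh WT stroma, and was detected on no array of LTβR-KO stroma (4.39 and 4.75) or splenocytes (4.36 and 4.69). The latter pair of types overlapped, and both lay below WT stroma. Uchl1 was at least 1.79-fold lower in LTβR-KO than in WT stroma (limma adjusted p = 0.00352), at least 1.80-fold lower in splenocytes (adjusted p = 0.000325), and 5.84-fold higher in culture than in fresh WT stroma (log2 difference 2.55 ± 0.19, SE; adjusted p = 8.41e-07). Uchl5, a proteasome-bound hydrolase of the same family, was higher in LTβR-KO stroma than in WT stroma by 0.95 on the log2 scale (adjusted p = 0.0077 by limma). Its signal was also higher in splenocytes (mean 7.03) than in WT stroma (5.03; limma adjusted p = 5.53e-06).

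Sncg (ILMN_2598478), γ-synuclein, gave 7.95 and 7.80 in WT stroma, 6.96 and 6.90 in LTβR-KO stroma, and 7.36 and 7.24 in culture, and was detected on neither splenocyte array (4.71 and 4.52). The 3 stroma types were ordered without overlap. LTβR-KO stroma was 1.93-fold below WT stroma (log2 difference -0.95 ± 0.14, SE; limma adjusted p = 0.00232), and WT stroma was at least 8.04-fold above splenocytes (adjusted p = 2.66e-08). Cultured stroma was 1.49-fold below fresh WT stroma (limma adjusted p = 0.00494), but this was not called when arrays were scaled to their 75th percentile (adjusted p = 0.086). The bead signals of Sncg, at 236.9 and 264.1 in culture and 224.4 and 256.4 in fresh WT stroma, overlapped.

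App (ILMN_1226911), the amyloid precursor protein, gave 9.45 and 9.10 in WT stroma, 8.51 and 8.56 in LTβR-KO stroma, 5.33 and 5.79 in splenocytes, and 9.96 and 10.13 in culture. The 4 types did not overlap, with culture highest and splenocytes lowest. App was 13.1-fold higher in WT stroma than in splenocytes (log2 difference 3.71 ± 0.19, SE; limma adjusted p = 7.07e-08) and 1.71-fold higher in culture than in fresh WT stroma (adjusted p = 0.00406). The fall in LTβR-KO stroma (-0.74 ± 0.19, limma adjusted p = 0.0284) was the smallest of the 8. It was no longer called in 6 of 19 alternative settings, among them each of those without WT stroma replicate 1, LTβR-KO stroma replicate 1 or 2, or cultured stroma replicate 1 (adjusted p over all settings 0.0115 to 0.182).

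**Figure D2:**
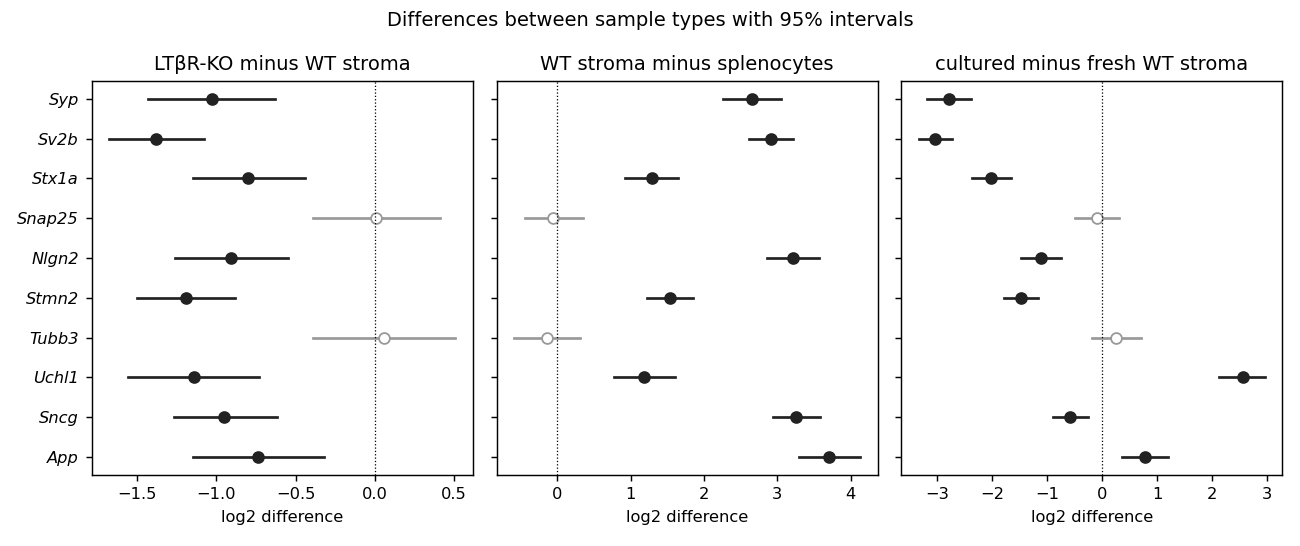
Log2 differences (horizontal axis) of the 10 genes with 95% intervals in LTβR-KO minus WT stroma, WT stroma minus splenocytes and cultured minus fresh WT stroma. Filled points passed an adjusted p of 0.05. Snap25 and Tubb3 are open in all panels, and Uchl1 and App change side between the first and the third panel.

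Against splenocytes, 8 of the 10 genes were higher in WT stroma and 0 were lower, with a median log2 difference of 2.10, whereas 55.8% of all tested probes passed and 24.2% were higher, with a median of -0.09. These 8 are the genes in the study's list of reduced genes, which kept only genes higher in WT stroma than in splenocytes. That list was drawn from these arrays, so the count and the median are not independent evidence of this direction. In culture, 2 genes were higher (Uchl1, App) and 6 lower than in fresh WT stroma, with 33.8% of tested probes higher and 30.9% lower. Stmn2, tested through WT stroma alone, was counted against splenocytes and against culture, and the detection filter fixed its direction in both. The share of genes called in culture, 8 of 10, stood beside a background of 64.7% in either direction. These comparisons share the WT stroma arrays, so their directions are not independent. Over the 4 sample types, 18 of the 30 neighbouring pairs of means were called different. The order of the same means set these pairs, and no such share was computed over all tested probes, so the count has no background. It includes WT and LTβR-KO stroma in Stmn2, a direction that the detection filter fixed. Shares of all tested probes were computed for fixed pairs of types only. They were 47.7% for LTβR-KO stroma and splenocytes, 59.1% for culture and splenocytes and 64.6% for culture and LTβR-KO stroma. Snap25 and Tubb3 accounted for 6 of the uncalled neighbouring pairs. The other uncalled neighbours were splenocytes and culture in Syp, Sv2b and Stmn2, LTβR-KO stroma and culture in Nlgn2 and Stmn2, and LTβR-KO stroma and splenocytes in Uchl1.

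LTβR-KO stroma held Syp, Sv2b, Stx1a, Nlgn2, Sncg and App at levels between WT stroma and splenocytes. These 6 of the 10 genes were still higher in LTβR-KO stroma than in WT splenocytes, beside 21% of all tested probes. All 6 are in the study's list, which kept only genes higher in WT stroma than in these splenocytes. Their share is therefore not independent evidence of this direction. For Stx1a, mean bead signals before normalization had the opposite order, 176.3 in LTβR-KO stroma and 184.9 in splenocytes. Nlgn2 was at least 3.57-fold higher (limma adjusted p = 1.13e-06), Sncg at least 4.17-fold (adjusted p = 5.04e-07) and App 7.86-fold (adjusted p = 5.36e-07). Stmn2 and Uchl1, detected in neither, were not called, and neither were Snap25 and Tubb3.

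For reference, other probes that were brighter in WT stroma than in splenocytes were taken as well. Of the 731 tested probes whose WT stroma signal exceeded that of splenocytes 4-fold or more, 405 (55.4%) were lower in LTβR-KO stroma and 8 were higher, with a median log2 difference of -0.66 and quartiles of -0.96 and -0.35. Syp, Sv2b, Nlgn2, Sncg and App belonged to these probes, and all 5 were lower, with a median of -0.95. All 5 are in the study's list of reduced genes, drawn from these arrays. Their count and median are therefore not independent evidence beside those of the 731 probes. The same WT stroma arrays chose the 731 probes and served as the reference for LTβR-KO stroma. The counts are thus a description with no value for the case of no change. Syp and Sv2b lay below the lower quartile, and Nlgn2, Sncg and App between the quartiles.

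Markers of several cell types in the fractions differed between LTβR-KO and WT stroma as well. Of 16 tested smooth muscle and pericyte genes, 11 were lower and 0 higher in LTβR-KO stroma (median -0.96). The summed normalized signal of this list was 37900 to 41580 in WT and 23070 to 24940 in LTβR-KO stroma. Bright genes weigh most in such a sum. Acta2, the brightest of this list (means 14.42 in WT and 13.81 in LTβR-KO stroma), was itself not called (limma adjusted p = 0.0703). Of 18 endothelial genes, 12 were lower and 0 higher (median -0.73), with summed signals of 22940 to 23060 and 15100 to 17470. Of 15 fibroblast and reticular cell genes, 7 were lower and 2 higher (Col3a1 and Dpt, by 0.71 and 0.93), with a median of -0.36. The largest falls as fitted were of Madcam1 (-4.33), Ccl21a (-3.59) and Cxcl13 (-1.98), which the paper lists as known LTβR targets. The 6 not called were Col1a1 (0.21), Col1a2 (-0.21), Pdgfra (0.14), Dcn (0.23), Thbs2 (-0.36) and Lum (0.03). Macrophage genes (1 higher and 3 lower of 10, median -0.09), platelet genes (1 and 2 of 8, -0.20) and mesothelial genes (0 and 0 of 4 with limma, 0 at an unadjusted p under 0.05, -0.03) had medians nearer 0. Lymphocyte genes went the other way: 6 of 10 B cell genes (summed signal 7367 to 8322 in WT, 15680 to 16080 in LTβR-KO stroma) and 9 of 12 T and NK cell genes (3188 to 3656 and 6721 to 7764) were higher. All 18 tested genes of pancreatic acinar cells were higher as well (5218 to 6051 and 20380 to 21450), of which 3 were tested through LTβR-KO stroma alone, whereas no pancreatic islet gene could be tested: Ins2 and Gcg, the genes of insulin and glucagon, were detected on 0 of the 8 arrays. The part of these cell types in the lower neuronal signals was not tested.

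**Figure D3:**
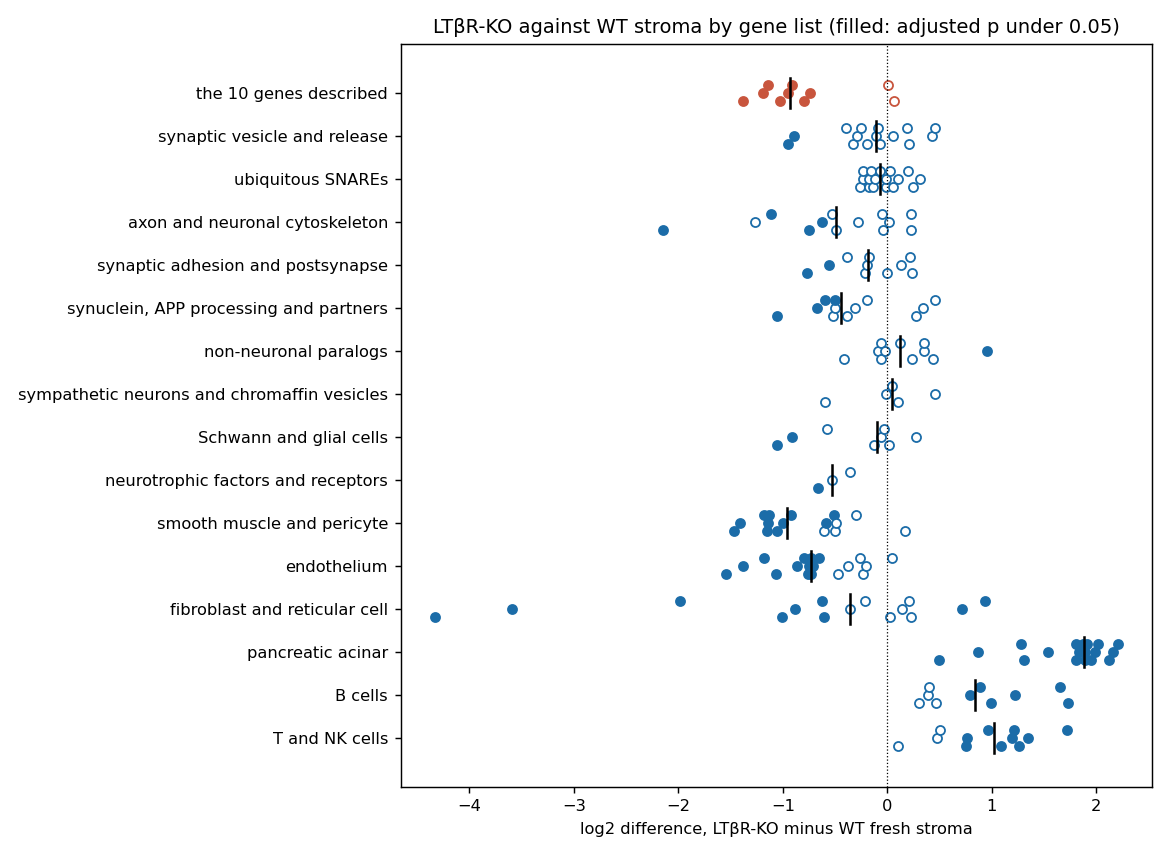
Log2 difference between LTβR-KO and WT stroma (horizontal axis) for the 10 genes described and for the tested genes of 15 lists, 1 point per gene. Filled points passed an adjusted p of 0.05 and black lines are medians. The medians of the smooth muscle (-0.96) and endothelial (-0.73) lists lie near that of the 10 genes (-0.93), and those of the synaptic vesicle (-0.11) and SNARE (-0.07) lists lie near 0. The axonal (-0.49), APP partner (-0.44) and neurotrophic (-0.53) medians lie between. The postsynaptic (-0.18), Schwann (-0.1) and sympathetic (0.04) medians lie nearer 0. Of the 10 genes, 8 are in the study's list of reduced genes, drawn from these arrays. Their median thus depends on that choice, and nearness to it is a description only.

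The other genes of the synaptic and axonal machinery were taken as lists, to be read against the 7.18% of all tested probes that were lower in LTβR-KO stroma and the 5.31% that were higher. Of 15 further synaptic vesicle and release genes tested, of 37 on the array, 2 were lower and 0 higher: Amph (amphiphysin, an adaptor of vesicle endocytosis; log2 difference -0.95) and Scamp5 (a secretory carrier membrane protein; -0.89). These 2 of 15 stand beside 12.5% of all probes called in either direction, and Amph was detected on both arrays in WT stroma alone, so that it had to be higher there. The vesicle SNARE Vamp2 did not pass the test (0.19, limma adjusted p = 0.736), and the calcium sensor Syt1 was detected on 0 of the 8 arrays. Among 17 SNARE genes of general membrane traffic, 0 passed in either direction with limma, and 0 had an unadjusted p under 0.05.

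Of 13 axonal and cytoskeletal genes tested, 4 were lower and 0 higher. Rbfox1, an RNA-binding splicing factor of neurons and muscle, gave 5.02 in LTβR-KO and 7.17 in WT stroma on average (log2 difference -2.15, limma adjusted p = 3.89e-05), and Dpysl3, a protein of the growth cone, fell by 1.11 (adjusted p = 0.0382). Mapt (tau) and Ank2 (ankyrin 2) were the others. Rbfox1 and Ank2, 2 of the 4, passed the detection filter through WT stroma alone, which fixed their direction. The neurofilament genes Nefl and Nefm were detected on 0 of the 8 arrays.

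Among 10 postsynaptic and adhesion genes, 2 kinases of the postsynapse were lower and 0 genes were higher. Camk2b differed by -0.56, and Camk2a, which was at least 1.21-fold lower, was detected in WT stroma alone and entered the test through it. Of 12 genes of APP processing and its partners, 4 were lower and 0 higher. Apbb1, an adaptor that binds the tail of APP, fell by 1.06 on the log2 scale (limma adjusted p = 0.000898), and Ncstn, nicastrin of the γ-secretase complex that cuts APP, fell by 0.67 (adjusted p = 0.0215). Bace2 and Aph1b were the others, and Bace1, the main β-secretase, did not pass the test (-0.19, adjusted p = 0.474). Aplp2, the APP-like protein 2, stood at 10.89 in LTβR-KO and 11.41 in WT stroma (adjusted p = 0.0714 by limma).

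Most markers of sympathetic neurons were not detected in fresh tissue. Th and Dbh, the enzymes of noradrenaline synthesis, Slc6a2, its transporter, and Chga, a protein of dense-core vesicles, were detected on 0 of the 8 arrays. Only 5 of 23 genes of this list on the array could be tested, and 0 differed between LTβR-KO and WT stroma with limma. At an unadjusted p under 0.05 there were 2, Gata2 (log2 difference -0.60) and Scg5 (0.46). Of 8 Schwann and glial genes, 2 were lower and 0 higher in LTβR-KO stroma, beside 7.18% lower and 5.31% higher among all tested probes. Sox10, the defining transcription factor of Schwann cells, gave 6.90 and 6.56 in WT stroma and 5.21 and 6.14 in LTβR-KO stroma (log2 difference -1.06, limma adjusted p = 0.023), and was detected neither in splenocytes nor in culture. Mag, a myelin protein, fell by 0.91 (limma adjusted p = 0.00695), while S100b was detected on 0 of the 8 arrays. Unlike Sox10, Mag was also detected on both arrays of splenocytes and of culture. Mbp (-0.13), Pmp22 (-0.06), Cnp (0.27) and Gldn (-0.58), other genes of this list, were not called. Sort1, a sorting receptor for neurotrophins, was lower by 0.66 (adjusted p = 0.011 by limma).

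In culture, the neuronal lists held genes of both directions, beside 33.8% of all tested probes higher and 30.9% lower. Among the 15 synaptic vesicle genes 6 were higher and 4 lower than in fresh WT stroma, among the 13 axonal genes 4 and 3, and among the 10 postsynaptic genes 1 and 5. The detection filter fixed some of these directions. Of the lower genes, Amph, Rbfox1, Homer2 and Camk2a were tested through fresh WT stroma alone. Of the higher ones, Kif1a and Nrcam were tested through culture alone. The vesicle SNAREs Vamp2 and Vamp1 fell by 2.07 and 1.62, while Syn1 (synapsin 1) was higher by 2.10. Slc32a1 (the vesicular GABA transporter) was at least 3.74-fold higher, but like Npy it was detected in culture alone, so that its direction was fixed by the detection filter. Tubb2b, another neuronal β-tubulin, was 2.69 higher (limma adjusted p = 1.67e-06) and Rbfox1 was detected in culture on neither array. Npy, the neuropeptide of sympathetic fibres, gave 11.1 and 11 in culture and was detected on 0 of the 6 other arrays, at least 75.2-fold higher than in fresh WT stroma. The partners of APP were also divided, since Aph1b was higher by 3.45 while Bace1 fell by 2.41. In culture, all 18 endothelial genes tested and 15 of 16 smooth muscle genes were lower, and the summed macrophage signal was 50490 to 53070 against 7338 to 7917 in fresh WT stroma. The part of these cells in the values in culture was not tested.

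The 10 genes followed a few patterns over the 8 arrays. As a description, with array and sample type shared by all points, Pearson's r was 0.99 between Syp and Sv2b, 0.93 between Syp and Stx1a and 0.91 between Syp and Stmn2, all highest in fresh WT stroma. It was 0.98 between Nlgn2 and Sncg and 0.94 between Sncg and App, which kept signal in culture and were low in splenocytes. Uchl1 was nearest to App (0.72) and had an r of -0.34 with Syp. The genes outside the set with the most similar profiles over the 8 arrays were Mpp3 for Syp (r = 0.998), Lgi3 and Notch4 for Sv2b (both 0.998), Dnajc6 and Sema6d for Stx1a (both 0.99), Gng8 for Nlgn2 (0.997), Gpr20 for Stmn2 (0.997), Gpr160 for Uchl1 (0.996), Rusc2 for Sncg (0.996) and Luzp1 for App (0.997). The nearest profiles of Snap25 (9130401M01Rik, 0.932) and Tubb3 (Tacc3, 0.953) were less close.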

How the data were processed

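Total RNA was amplified, labelled with biotin and hybridised to MouseRef-8 BeadChips, and the authors read the arrays with GenomeStudio. They deposited bead signals as linear intensity values without normalization, and a detection p-value for each probe and array. A table normalized by cubic spline with background subtraction was deposited as intensity values by the authors and served as an alternative only. Each group was taken from the sample labels. Bead signals were corrected by normexp with controls inferred from the detection p-values, given an offset of 16, quantile-normalized and transformed to log2 (neqc, limma 3.58.1 in R 4.3.3, with statmod 1.5.0). Tested probes (12389) were fitted over all 8 arrays as 4 group means with lmFit and eBayes (4 residual and 6.22 prior degrees of freedom), two-sided, with Benjamini-Hochberg adjustment over all tested probes at 0.05. The brightest probe stood for a gene. Where the dimmer group was detected on neither array, its value was replaced on each array by the higher of its own and the lowest signal among detected probes, and the fold is given as "at least". The number of arrays, 2 per group, limits the precision. The fit was tested on simulated data.

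All 10 genes were named. From each gene list, the 2 largest rises and falls past the threshold, paralogs of the 10 genes, and the genes of most similar profile were taken by rule; defining markers, Madcam1, Vamp2, Bace1 and the undetected genes were added after their values were seen. Genes and lists were chosen with earlier results of these data known. Of the probes, 20984 carried 1 gene symbol, 1 several and 3628 none, and 20968 were matched to RefSeq by gene ID. Several list genes without an annotated probe were not analysed here. Plots and promoter searches used Python 3.11.15, numpy 2.4.6 and matplotlib 3.10.9. The alternatives were other offsets, background corrections, normalizations, detection filters, a fit of the compared groups only, a replicate block, a trend in eBayes, the mean of a gene's probes and leaving out each array.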

Additional observations from a re-analysis of the deposited data

How the results depend on the processing

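Under 11 alternative settings (10 for the order of levels), 7 to 8 of the 10 genes differed between LTβR-KO and WT stroma, 8 between WT stroma and splenocytes and 7 to 8 between cultured and fresh stroma, and 17 to 19 neighbouring means were separated. Leaving out each array in turn gave 6 to 8, 8, 8 and 15 to 17. Of 570 values for single genes, 562 kept direction and side of the threshold, 8 lost the threshold in the same direction and 0 reversed. The losses were 6 of App and 1 of Stx1a in LTβR-KO stroma and 1 of Sncg in culture. The number of all probes called between LTβR-KO and WT stroma, 1547, was 1019 after scaling to the 75th percentile and 895 with only the groups compared, where fewer arrays entered the fit. It was 701 to 1464 when 1 array was left out, the lowest without WT stroma replicate 1, and 953 when LTβR-KO stroma replicate 2 was omitted. With 1 array left in a type, its spread was taken to be that of the other types. For the scaling to the 75th percentile the cause was not tested. Between WT stroma and splenocytes 5628 to 7093 probes, and between cultured and fresh stroma 7245 to 8191, were called without 1 array. A replicate block gave 1518 probes and 8 of the 10 genes in LTβR-KO against WT stroma, and changed no other call. The replicate numbers name samples only: differences between replicates correlated between types at -0.14 to 0.29. Signals near background (Stmn2, Uchl1, Snap25, Tubb3) bound what can be seen: folds against undetected types are lower bounds.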
